A study of Mus musculus with 16 samples.

Results

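The genes described here are 9 splicing regulators that are prominent in neurons or set against neuronal splicing, Srrm4, Srrm3, Nova1, Nova2, Rbfox1, Rbfox2, Rbfox3, Ptbp1 and Ptbp2, together with the transcriptional repressor Rest. They are 10 of the 29997 genes that the array names, and they are covered by 19 of its 55681 probes. All 10 genes and all 19 probes passed the filter on dim probes, which 19570 genes passed in all. The group was chosen on the strong fall of Srrm4 with siSfpq in these arrays, so that levels in siSfpq against control are given as a description, without a test. Messenger RNA was measured in P19 cells, a mouse embryonal carcinoma line that grows as undifferentiated cells and can form neurons with retinoic acid. The cells were transfected with a control, with a let-7a mimic (let-7a), with siSfpq, or with the mimic and siSfpq together (let-7a+siSfpq, also called both below), at 24 nM each, and total RNA was collected after 48 h. siSfpq is a pool of 4 siRNAs against Sfpq, an RNA-binding protein of the nucleoplasm, and the sources used here do not say what the control of the array experiment contained. All conditions are transient transfections of 1 cell line, with 4 arrays of 1 colour per condition.

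Neuronal splicing differs from that of other cells because a small set of RNA-binding proteins is switched on or off as neurons form. Srrm4 and its paralogue Srrm3 promote the inclusion of very short neuronal exons, the microexons. Nova and Rbfox proteins bind YCAY and UGCAUG motifs next to alternative exons, and Rbfox3 is the neuronal marker known as NeuN. Ptbp1 acts the other way, since it holds neuronal exons out of messenger RNAs in non-neuronal cells, among them an exon that Ptbp2 needs to be productive. Rest represses neuronal genes through RE1 elements with the corepressors Rcor1 and Sin3a, and Srrm4 is known to switch the splicing of Rest itself to a shorter form. The array measures how much RNA binds a probe and does not measure splicing.

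The mimic carries the mature let-7a sequence, shown here with the seed (bases 2 to 8) in capitals because it sets which messenger RNAs the mimic can pair with. The sequence is that of RefSeq for Mirlet7a-1 on the minus strand of chr13:48538239-48538260 (GRCm38.p6).
mmu-let-7a-5p: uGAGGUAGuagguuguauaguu

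Replicates 1 and 2 of each condition differed by less than the spots of 1 probe on 1 array (SD of the log2 difference 0.0562 against 0.0623), whereas arrays 1 and 3 differed by 0.287. They were therefore averaged and counted as 1 sample, called replicate 1-2, which left 12 samples, 3 per condition. Nothing in the labels says that replicates came from separate cultures, and the study's methods name 3 transfected replicates per condition without saying how they were grown. The p values therefore measure the spread between these samples, which may be technical. Between 33733 and 38464 of 59305 spots were well above background on each array. Sfpq, the targeted gene, had log2 levels of 12.07, 11.98 and 11.98 in control (replicates 1-2, 3 and 4, the order used for all values below) and 12.04, 11.997 and 11.90 in let-7a. It had 10.55, 11.46 and 10.62 with siSfpq and 11.31, 11.49 and 11.41 with both. Sfpq was thus lower in every sample that received siSfpq, by 1.13 on average with siSfpq alone (0.456 of the control level). Among the siSfpq samples it was reduced least in replicate 3. By the per-array SD used above, arrays 3 and 4 differed by 0.259 and arrays 1 and 4 by 0.134. Replicate 3 thus stood apart over the probes compared, although not in the level of Sfpq outside siSfpq. Counts of genes that passed the test are therefore also given without replicate 3. With both, Sfpq was lower than in control by 0.61 on average (0.656 of the control level). Its level with both was 0.52 above that with siSfpq alone (adjusted p = 0.104 by limma, 0.0393 with the replicate number as a block), and 0.77 above it without replicate 3 (adjusted p = 0.000180). The level of Sfpq thus moved with the comparison of both against siSfpq used below, and its part in those results was not tested.

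Undifferentiated cells were represented by 8 of 9 pluripotency markers that were measured (Zfp42 was not well above background), and all 6 neuron markers were measured too. The summed pluripotency markers lay at 91.4 to 116% of the control mean in control, 66.9 to 97.6% with let-7a, 123 to 128% with siSfpq and 96.3 to 108% with both. The summed neuron markers lay at 92.4 to 105%, 106 to 130%, 47.1 to 71.8% and 73.9 to 80.4% in the same order, and of the neuron list 3 of 6 genes passed the test upward with let-7a (4.50% of all genes), 3 downward with siSfpq added to let-7a (2.02%) and 3 upward with both against siSfpq (5.57%). Of the pluripotency list, 2 passed downward with let-7a (1.83%), 2 upward with siSfpq added to it (0.812%) and 1 downward with both against siSfpq (3.70%). The neuron list gave, without replicate 3, 4 upward, 5 downward and 6 upward in these comparisons, where 28.1%, 24.8% and 45.4% of all genes passed in either direction, and 1 upward and 3 downward with both against control (16.8%). The pluripotency list then gave 4 downward, 4 upward with 1 downward, 2 each way, and 2 each way. Of other lineages, the summed glia markers (5 of 5 measured) lay between 83.4 and 119% of the control mean over all samples. Endoderm markers (3 of 4, Sox17 not well above background) reached up to 288% of the control mean with both and 286% with let-7a, and only 1 of 4 muscle markers was measured, with Myog, Tnnt2 and Myl7 not well above background. The pluripotency and neuron markers moved with the neuronal regulators below, and their part in those results was not tested, nor was that of the endoderm markers. In bulk RNA, fewer cells of a type and less RNA per cell cannot be told apart.

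Across the 4 conditions, the mean levels of Srrm4, Srrm3, Rbfox1 and Rbfox3 were highest in let-7a and lowest in siSfpq, although siSfpq and control overlapped for Srrm3 and Rbfox3, whereas Ptbp1 and Rest were lowest in let-7a and highest in siSfpq, with smaller differences. Nova2 hardly differed between conditions. In the fit without a block, Srrm4, Srrm3 and Rbfox1 passed the test upward with let-7a and no member passed it downward. When siSfpq was added to let-7a, Srrm4 and Rbfox1 passed the test downward. With the replicate number as a block, Rbfox3 also passed upward and Ptbp2 and Rest downward with let-7a (20.9% of all genes in either direction). Srrm3 and Rbfox3 then also passed downward with siSfpq added (12.2%). Without replicate 1-2 or without replicate 4, where at most 3 of all genes passed in a comparison, no member passed.

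**Figure D1:**
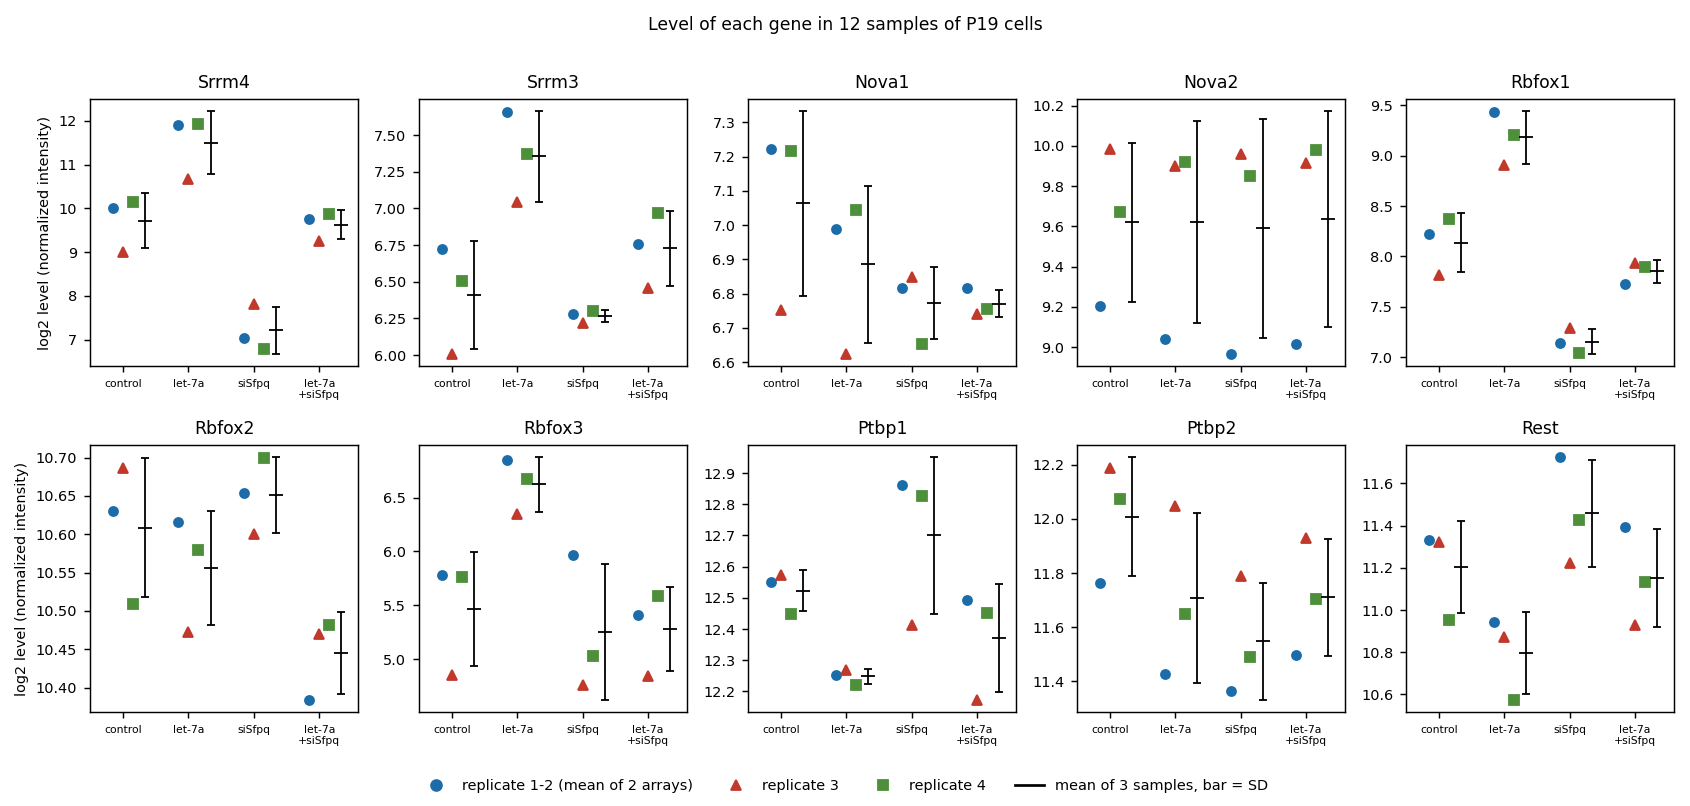
Log2 level of each gene (y axis, quantile-normalized intensity, a separate scale in each panel) in the 4 conditions (x axis). Points are the 3 samples of a condition, marked by replicate, and the bars give the mean and SD; Srrm4 runs from 6.79 in a siSfpq sample to 11.94 in a let-7a sample, while the 12 Rbfox2 samples lie between 10.38 and 10.6995.

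Srrm4, the activator of microexons, showed the widest range of the 10 genes. Its log2 level was 10.01, 9.005 and 10.15 in control and 11.90, 10.66 and 11.94 in let-7a. It was 7.03, 7.82 and 6.79 with siSfpq and 9.77, 9.24 and 9.88 with both. All let-7a samples were above all control samples and all siSfpq samples were below them, while control and let-7a+siSfpq overlapped. With let-7a, Srrm4 rose by 1.78 ± 0.40 on the log2 scale (SE, n = 3 per condition), or 3.44-fold, with an adjusted p of 0.0231 by limma, and it was higher in 3 of 3 replicates. With siSfpq added to let-7a, it fell by 1.87 ± 0.40 (adjusted p = 0.0333 by limma, lower in 3 of 3 replicates). Against siSfpq, the level in let-7a+siSfpq was 2.42 higher, given with no test because the siSfpq samples entered the choice of the gene. The control samples entered that choice too, so the tests of Srrm4 against control are not independent of it.

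In siSfpq against control, the difference of Srrm4 was -2.51 on average, and the replicates gave -2.98, -1.18 and -3.36. The smallest of these was that of replicate 3, where Sfpq was also reduced least. Without replicate 3 the mean difference was -3.17. Between let-7a+siSfpq and control, Srrm4 differed by -0.09, with a 95% interval from -0.97 to 0.79 (adjusted p = 0.983 by limma). That interval leaves room for a difference of nearly 1 log2 unit in either direction, and it rests on control samples that also entered the choice of Srrm4.

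With no filter on dim probes, both calls of Srrm4 missed the threshold (adjusted p = 0.0587 and 0.0820 by limma), where 988 and 260 of 29948 genes passed. They were also lost without replicate 1-2 and without replicate 4, when hardly any gene passed. In let-7a against control 3 of 19570 genes passed without replicate 1-2 and 2 without replicate 4, and 0 passed in the other comparisons by limma. Without replicate 1-2 the let-7a difference was 1.72 (adjusted p = 0.43 by limma) and without replicate 4 it was 1.78 (adjusted p = 0.375 by limma), whereas without replicate 3 it was 1.84 (adjusted p = 4.38e-05 by limma). The difference of let-7a+siSfpq against let-7a was -1.74 without replicate 1-2 (adjusted p = 0.751), -1.78 without replicate 4 (adjusted p = 0.794) and -2.1 without replicate 3 (adjusted p = 4.08e-05), all by limma. The size hardly moved between these fits. The arrays of the conditions were spread over 2 slides, slide 1 with replicates 1 and 2 and slide 2 with replicates 3 and 4 of every condition. The let-7a difference was 1.89 within slide 1 and 1.72 within slide 2.

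The 250 bases before the Srrm4 start are shown because the gene moved with the neuronal genes below and this stretch holds CAGATG, an E-box of the kind bound by neurogenic bHLH factors. The sequence is from RefSeq (GRCm38.p6, minus strand, chr5:116591818-116592067), with CAGATG in capitals.
Srrm4 upstream: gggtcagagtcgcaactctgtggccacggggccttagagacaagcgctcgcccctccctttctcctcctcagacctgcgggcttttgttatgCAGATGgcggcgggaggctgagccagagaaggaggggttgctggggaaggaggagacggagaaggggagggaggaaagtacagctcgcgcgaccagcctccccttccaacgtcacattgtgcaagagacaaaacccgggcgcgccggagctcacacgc
The motif starts 158 bases before the Srrm4 start, and it was searched on both strands in the same window of all 32851 promoters of the table. It occurs in 14.4% of them, and of the 8 members with a promoter in the table it occurs in Srrm4, Srrm3 and Ptbp1. CAGCTG, another E-box, occurs in 13% of promoters and in Nova1 and Rbfox1. Of 2 stretches of the RE1 element, CAGCACC occurs in 5.73% of promoters and in none of these members, and GGACAGC in 5.28% and in Ptbp2. The shares count promoters, whereas a member counts if any of its promoters holds the motif, so the 2 are not in the same unit. These matches are a description of the letters in this window, and other parts of the genes were not searched.

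Srrm3, the paralogue of Srrm4, was measured with 2 probes that did not behave alike. Averaged over both, the gene had log2 levels of 6.72, 6.01 and 6.503 in control, 7.66, 7.04 and 7.37 with let-7a, 6.28, 6.22 and 6.30 after siSfpq, and 6.76, 6.46 and 6.97 with both. All let-7a samples were above all samples of the other conditions. Srrm3 rose by 0.95 ± 0.22 with let-7a (SE, n = 3 per condition; 1.93-fold; adjusted p = 0.0284 by limma), in 3 of 3 replicates. This call was not held under every setting. It missed the threshold with the 75th percentile scaling (0.94, adjusted p = 0.0619), with no filter on dim probes (0.0543), with only the groups compared (0.0561), without replicate 1-2 (0.381) and without replicate 4 (0.476), all by limma. With siSfpq added to let-7a, Srrm3 differed by -0.63 ± 0.22 (adjusted p = 0.18 by limma). With the replicate number as a block, that difference passed the test (adjusted p = 0.0211), as did the 0.46 between let-7a+siSfpq and siSfpq (adjusted p = 0.0345 with the block, 0.206 without it).

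The brighter Srrm3 probe, A_55_P2119249, lies on chr5:136350579-136350638 (mm9, plus strand) and was well above background on all 16 arrays. Its log2 level was 8.94, 8.47 and 9.16 in control, 10.41, 9.57 and 10.62 with let-7a, 7.74, 8.25 and 7.81 after siSfpq, and 8.98, 8.73 and 9.20 with both, so that its mean, like that of Srrm4, was highest in let-7a and lowest in siSfpq. Tested alone, it rose by 1.34 ± 0.27 with let-7a (adjusted p = 0.0153), fell by 1.23 ± 0.27 with siSfpq added to let-7a (adjusted p = 0.0393) and was 1.04 ± 0.27 higher with both than with siSfpq alone (adjusted p = 0.0405), all by limma with n = 3 per condition. The dimmer probe, A_55_P2119244 on chr5:136349119-136349178, was well above background on only 2 of 4 control arrays. Its means lay between 3.97 in control and 4.60 in siSfpq, and it passed no test. The gene average thus holds a probe that moved and one that did not pass.

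Rbfox1, which binds UGCAUG beside neuronal exons, had log2 levels of 8.23, 7.81 and 8.37 in control and 9.43, 8.91 and 9.20 in let-7a. It had 7.14, 7.29 and 7.04 with siSfpq and 7.72, 7.94 and 7.90 with both. The let-7a samples were above all others and the siSfpq samples below all others. It rose by 1.05 ± 0.18 with let-7a (SE, n = 3 per condition; 2.06-fold; adjusted p = 0.00588 by limma). It fell by 1.33 ± 0.18 when siSfpq was added to let-7a (adjusted p = 0.00571 by limma), and it was 0.70 ± 0.18 higher with both than with siSfpq alone (adjusted p = 0.0355 by limma). Each of these differences had the same sign in 3 of 3 replicates.

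Both Rbfox1 probes moved this way, with 1.14 and 0.95 for let-7a against control. In siSfpq against control the mean difference was -0.98, and the replicates gave -1.09, -0.53 and -1.33. Without replicate 1-2 the let-7a difference was 0.97 (adjusted p = 0.284 by limma) and without replicate 4 it was 1.15 (adjusted p = 0.225 by limma). The difference between let-7a+siSfpq and siSfpq did not pass with the authors' processed values (0.55, adjusted p = 0.053), with no filter on dim probes (adjusted p = 0.0597) or with only the groups compared (adjusted p = 0.103), all by limma, nor without replicate 1-2 or replicate 4. Without replicate 3, Rbfox1 was also 0.49 below control with both (adjusted p = 0.0293 by limma), against -0.28 over all samples (adjusted p = 0.661 by limma).

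Rbfox3 (NeuN) was measured with 3 probes, and its averaged log2 level was 5.78, 4.86 and 5.77 in control, 6.85, 6.35 and 6.68 with let-7a, 5.97, 4.76 and 5.03 after siSfpq, and 5.41, 4.84 and 5.59 with both. The let-7a samples were above all other samples, and the other conditions overlapped. The difference of let-7a against control was 1.16 ± 0.35 (SE, n = 3 per condition; adjusted p = 0.082 by limma) and that of let-7a+siSfpq against let-7a was -1.35 ± 0.35 (adjusted p = 0.0691 by limma). Both missed the threshold, and both passed with the replicate number as a block (adjusted p = 0.00465 and 0.00478) and with the slide as a block (adjusted p = 0.04 and 0.0391). Rbfox3 differed by -0.22 and Srrm3 by -0.14 in siSfpq against control, each with differences of both signs among replicates.

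The brightest Rbfox3 probe, A_55_P1993777, had levels of 8.24, 7.43 and 8.27 in control and 9.41, 8.60 and 9.25 in let-7a (adjusted p = 0.0521 by limma). The dimmest, A_51_P313651, was well above background on 4 of 4 let-7a arrays, on 1 of 4 siSfpq arrays and on no array of control or let-7a+siSfpq. This probe passed the filter through let-7a alone, so that the averaged test rests in part on values not well above background. With only the probes well above background on all arrays, the differences were 1.14 (adjusted p = 0.0626) and -1.19 (adjusted p = 0.0800) without the block. In the same fit with the block, an alternative added after the data were examined, they passed (adjusted p = 0.000214 and 0.000649, all by limma).

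Rbfox2, the member of the family that is also widely expressed outside neurons, had gene-level values from 10.38 to 10.6995 over all 12 samples, and no comparison passed the test. Without replicate 3, Rbfox2 was 0.24 lower with both than with siSfpq alone (adjusted p = 0.0213 by limma), against a difference of -0.21 over all samples. Its 2 probes, however, went opposite ways. Probe A_52_P310530 (chr15:76912771-76912830, mm9, minus strand) had levels of 9.95, 10.19 and 9.84 in control, 9.72, 9.88 and 9.71 with let-7a, 10.43, 10.37 and 10.44 after siSfpq, and 9.69, 9.999 and 9.72 with both. All siSfpq samples were above all other samples. Probe A_55_P1982019 (chr15:76914284-76914343, mm9, minus strand) had levels of 11.31, 11.19 and 11.17 in control, 11.51, 11.06 and 11.44 with let-7a, 10.88, 10.83 and 10.96 after siSfpq, and 11.08, 10.94 and 11.24 with both. Here the siSfpq samples were the lowest, although one of them (10.96) lay above a let-7a+siSfpq sample (10.94).

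The difference of the 2 Rbfox2 probes within a sample, the first minus the second, was -0.46, -0.47 and -0.51 in siSfpq. It was -1.39, -0.94 and -1.52 in let-7a+siSfpq, -1.36, -0.996 and -1.33 in control and -1.79, -1.18 and -1.73 in let-7a. The siSfpq samples stood apart from all other samples. Between let-7a+siSfpq and siSfpq the change was -0.81, with an exact two-sided permutation p of 0.1, the smallest that 3 samples against 3 allow. Tested alone, the first probe was 0.61 ± 0.13 lower with both than with siSfpq alone (adjusted p = 0.0188 by limma), while the second differed by 0.20 ± 0.13 (adjusted p = 0.361 by limma). The change between the probes was tested by permutation alone, which at this size cannot pass at 0.05, and these values do not say which transcripts carry it.

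**Figure D2:**
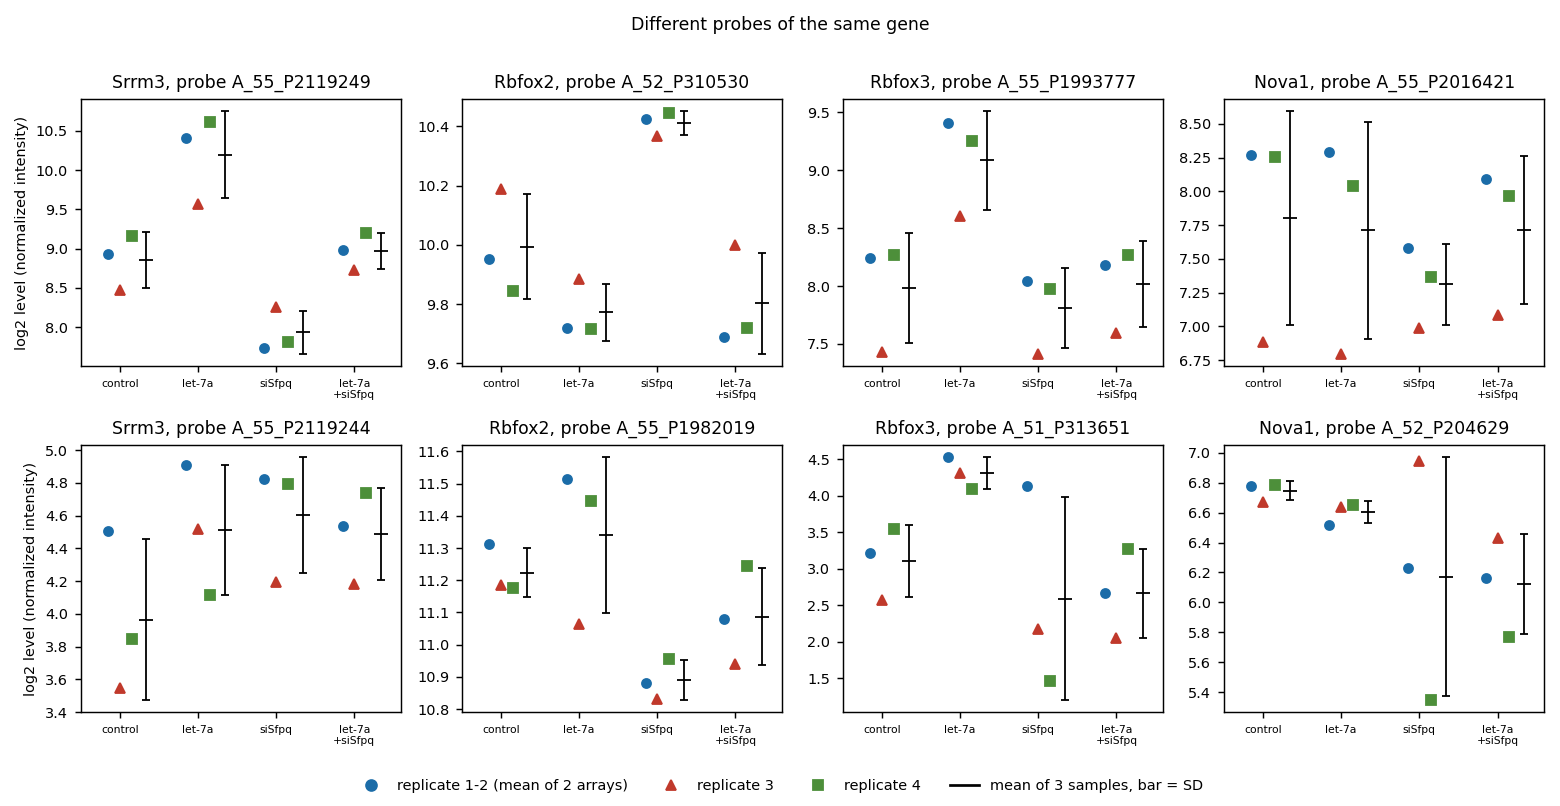
Log2 level (y axis, quantile-normalized intensity, a separate scale in each panel) of 2 probes each of Srrm3, Rbfox2, Rbfox3 and Nova1 in the 4 conditions (x axis), with 1 point per sample and bars for the mean and SD. In siSfpq the Rbfox2 probe in the upper row is at its highest (10.37 to 10.44) and the one in the lower row at its lowest (10.83 to 10.96), and replicate 3 of the upper Nova1 probe lies near 7 in every condition.

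Nova1 and Nova2, KH-domain proteins that bind YCAY clusters, passed no test in any comparison. Nova1 had log2 levels of 7.22, 6.75 and 7.22 in control, 6.99, 6.62 and 7.04 with let-7a, 6.82, 6.85 and 6.65 after siSfpq, and 6.82, 6.74 and 6.76 with both. The conditions overlapped, and the lowest control sample was replicate 3. Its probe A_55_P2016421 read 6.79 to 7.08 in replicate 3 of the 4 conditions and 7.36 to 8.29 in the other samples, whereas the other 2 Nova1 probes did not set replicate 3 apart in this way. Without replicate 3, Nova1 was 0.43 below control with both (adjusted p = 0.0352 by limma), against -0.29 over all samples (adjusted p = 0.634 by limma).

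Nova2 had levels of 9.20, 9.99 and 9.67 in control, 9.04, 9.90 and 9.92 with let-7a, 8.97, 9.96 and 9.85 after siSfpq, and 9.02, 9.91 and 9.98 with both. Replicate 1-2 was the lowest sample of every condition, and this spread exceeded any difference between conditions. The means of the 4 conditions lay between 9.59 and 9.64. The 95% intervals of the tested differences reached from -0.77 to 0.81 in the fit without the block, where the SE of a difference was 0.35. With the replicate number as a block the SE was 0.0998, and no difference of Nova2 passed.

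Ptbp1, the repressor of neuronal exons, was measured with 2 probes and had log2 levels of 12.55, 12.57 and 12.45 in control and 12.25, 12.27 and 12.22 in let-7a. It had 12.86, 12.41 and 12.83 with siSfpq and 12.49, 12.17 and 12.45 with both. All let-7a samples were below all control samples, and let-7a differed from control by -0.28 ± 0.13 (SE, n = 3 per condition), or 0.826-fold, which did not pass the test (adjusted p = 0.255 by limma). Let-7a+siSfpq differed from siSfpq by -0.33 ± 0.13 (adjusted p = 0.119 by limma), and this passed with the replicate number as a block (adjusted p = 0.0382). In siSfpq, replicates 1-2 and 4 were above every control sample and replicate 3 was below every control sample.

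Without replicate 3, Ptbp1 passed the test in 3 comparisons. It was then 0.26 lower with let-7a than in control (adjusted p = 0.0133), 0.23 higher with both than with let-7a alone (adjusted p = 0.0225) and 0.37 lower with both than with siSfpq alone (adjusted p = 0.00157), all by limma with n = 2 per condition. Over all samples the second of these differences was 0.12 (adjusted p = 0.76 by limma). The direction of Ptbp1 was thus opposite to that of Srrm4 in each of these comparisons.

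Ptbp2, the paralogue of Ptbp1 that is prominent in neural progenitors, had levels of 11.76, 12.19 and 12.07 in control, 11.43, 12.05 and 11.65 with let-7a, 11.37, 11.79 and 11.49 after siSfpq, and 11.50, 11.93 and 11.70 with both. Within each replicate number the control sample was the highest, but the conditions overlapped because the replicates differed. Let-7a differed from control by -0.30 ± 0.18 (SE, n = 3 per condition; adjusted p = 0.416 by limma) and let-7a+siSfpq from control by -0.30 ± 0.18 (adjusted p = 0.65 by limma). With the replicate number as a block, both passed the test (adjusted p = 0.0162 and 0.0337). Let-7a+siSfpq and let-7a differed by 0.00, with a 95% interval from -0.40 to 0.40.

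Rest, the repressor of neuronal genes, had log2 levels of 11.33, 11.32 and 10.95 in control and 10.94, 10.87 and 10.57 in let-7a. It had 11.73, 11.22 and 11.43 with siSfpq and 11.40, 10.93 and 11.13 with both. All let-7a samples were below all control samples, while the other conditions overlapped with control. Let-7a differed from control by -0.41 ± 0.17 (SE, n = 3 per condition), or 0.754-fold, with the same sign in 3 of 3 replicates and an adjusted p of 0.208 by limma. With the replicate number as a block the adjusted p was 0.0382. No other tested difference of Rest passed, with or without the block. Let-7a+siSfpq was 0.36 ± 0.17 above let-7a (adjusted p = 0.354, and 0.083 with the block, by limma) and 0.31 ± 0.17 below siSfpq (adjusted p = 0.275, and 0.0744 with the block, by limma).

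Rest was measured with 2 probes of 60 bases. They are shown because the level of Rest was read at these stretches alone, and the exons they lie in were not derived here. The array files place them on the plus strand (mm9) at chr5:77704280-77704339 and chr5:77711857-77711916.
Rest probe A_55_P2143306: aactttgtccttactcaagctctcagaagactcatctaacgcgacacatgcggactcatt
Rest probe A_51_P348456: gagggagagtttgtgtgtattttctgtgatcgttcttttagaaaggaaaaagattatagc
The first had mean log2 levels of 12.32 in control, 11.86 with let-7a, 12.51 with siSfpq and 12.28 with both. The second had 10.09, 9.73, 10.40 and 10.02 in the same order. The probes therefore ranked the conditions alike, and with let-7a they differed from control by -0.46 ± 0.18 and -0.36 ± 0.17 (adjusted p = 0.189 and 0.297 by limma).

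Of the 10 members, 3 passed the test upward and 0 downward in let-7a against control, where 4.50% of 19570 genes passed upward and 1.83% downward. At an unadjusted p under 0.05 by limma, 4 members were higher and 1 (Rest) was lower. Adding siSfpq to let-7a gave 0 members upward and 2 downward, against 0.812% and 2.02% of all genes. This comparison shares no sample with the comparison that chose Srrm4. It uses the same siRNA pool, however, and its spread was estimated over all 4 conditions together. Between let-7a+siSfpq and siSfpq, with Srrm4 left out, 1 member passed upward and 0 downward, against 5.57% and 3.70%. Between let-7a+siSfpq and control no member passed by limma in either direction, also at an unadjusted p under 0.05, and 1.12% of all genes passed upward and 0.204% downward. These comparisons share control or treated samples with each other. The control samples also entered the choice of Srrm4.

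In siSfpq against control, Srrm4 and Rbfox1 were lower in all samples of siSfpq than in all samples of control, and no member was higher without overlap. Among all genes, 15.0% were higher and 13.8% lower without overlap. The median difference of the 10 members was -0.18 there, against 0.01 for all genes. It was -0.03 for let-7a against control and -0.11 when siSfpq was added to let-7a, against -0.04 and 0.03 for all genes. The members went both ways, so these medians do not describe single members. The median in siSfpq against control also includes the Srrm4 difference that chose the group.

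With the replicate number as a block, 4 members passed upward and 2 (Ptbp2 and Rest) downward with let-7a, where 20.9% of all genes passed in either direction. With this block, 4 members (Srrm4, Srrm3, Rbfox1 and Rbfox3) passed downward in let-7a+siSfpq against let-7a, where 12.2% of all genes passed. Between let-7a+siSfpq and siSfpq it was Srrm3 and Rbfox1 upward and Ptbp1 downward, with 32.5% of all genes, and in let-7a+siSfpq against control Ptbp2 downward, with 7.56%. Without replicate 3, the numbers upward and downward were 4 and 1, 1 and 4, 2 and 2, and 0 and 2 in the order of the 4 comparisons, while 28.1%, 24.8%, 45.4% and 16.8% of all genes passed. Without replicate 1-2 or without replicate 4, no member passed by limma in any comparison, where 3 or 2 of all genes passed with let-7a against control and 0 in the others.

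**Figure D3:**
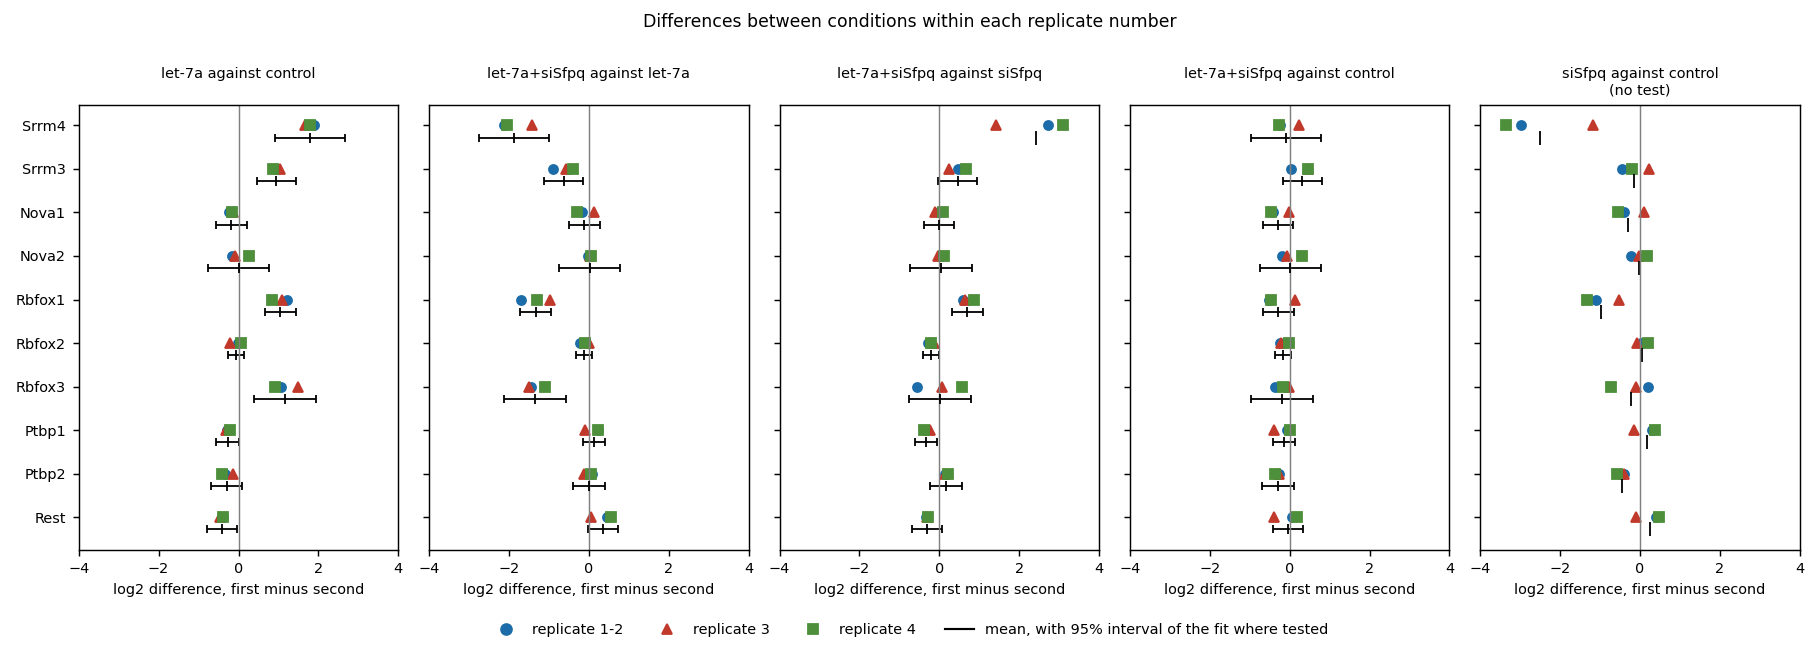
Log2 difference between conditions (x axis, first minus second) for each gene (y axis) in 5 comparisons. Points are differences within a replicate number, black marks the mean with the 95% interval of the limma fit where a test was made; Srrm4, Srrm3, Rbfox1 and Rbfox3 lie right of 0 in all 3 replicates of let-7a against control and left of 0 when siSfpq was added to let-7a.

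Other neuronal RNA-binding splicing regulators were described with a list of 9 genes of the Elavl, Celf and Khdrbs families, all of them measured. This list and those that follow were chosen with earlier results of these data known. Their counts beside the shares of all genes are therefore a description. With let-7a, 5 passed the test upward and 0 downward (4.50% of all genes upward), and the list's median change was 1.05 against -0.04 for all genes. With siSfpq added to let-7a, 5 passed downward and 0 upward (2.02% of all genes downward), with a median of -1.20 against 0.03. Compared with siSfpq, 6 passed with both upward and 0 downward (5.57% of all genes upward). Against control, 0 passed with both by limma, and 2 were higher at an unadjusted p under 0.05. In siSfpq against control, 6 of the 9 were lower without overlap (13.8% of all genes) and the median difference was -0.93. Without replicate 3, the counts in the 4 tested comparisons were 6 upward, 6 downward, 7 upward and 1 upward, where 28.1%, 24.8%, 45.4% and 16.8% of all genes passed in either direction. Without replicate 1-2 or without replicate 4, where at most 3 of all genes passed in a comparison, no gene of this list passed by limma. The counts with the replicate number as a block were 6 upward, 6 downward, 7 upward and 0, where 20.9%, 12.2%, 32.5% and 7.56% of all genes passed.

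Celf3, a brain-enriched regulator, had log2 levels of 6.09, 5.06 and 5.996 in control, 9.53, 7.65 and 9.23 with let-7a, 4.71, 4.63 and 5.03 after siSfpq, and 6.82, 6.38 and 6.91 with both. No sample of one condition overlapped with another condition. It rose by 3.09 ± 0.43 with let-7a (SE, n = 3 per condition; adjusted p = 0.00212 by limma) and fell by 2.10 ± 0.43 with siSfpq added (adjusted p = 0.0274 by limma). Celf6 rose by 1.85 ± 0.28 with let-7a (adjusted p = 0.00287 by limma) and was 1.99 ± 0.28 higher with both than with siSfpq alone (adjusted p = 0.00366 by limma). Elavl4 and Elavl3, neuronal Hu proteins that bind AU-rich RNA, followed the same order. Elavl4 rose by 1.73 ± 0.25 with let-7a (adjusted p = 0.00229), and Elavl3 fell by 1.33 ± 0.31 with siSfpq added to let-7a (adjusted p = 0.0465), both by limma. In contrast, Elavl2 differed by -0.01 with let-7a (adjusted p = 0.99 by limma).

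The next list held 16 widely expressed or epithelial splicing regulators, all of them measured. With let-7a, 1 passed upward and 0 downward, against 4.50% and 1.83% of all genes. This was Mbnl2, with a rise of 0.64 ± 0.16 (SE, n = 3 per condition; adjusted p = 0.0338 by limma), and the median of the list was -0.07. With siSfpq added to let-7a, 2 passed upward and 0 downward, against 0.812% and 2.02% of all genes. Esrp2, an epithelial splicing regulator, rose by 1.94 ± 0.40 (adjusted p = 0.0269) and Mbnl3 by 0.82 ± 0.17 (adjusted p = 0.0322), both by limma. No gene of this list passed in the other 2 comparisons by limma, beside 5.57% upward and 3.70% downward, and 1.12% and 0.204%, of all genes. There, 3 were lower in let-7a+siSfpq against siSfpq, and 4 higher and 1 lower against control, at an unadjusted p under 0.05. In siSfpq against control, 5 were higher without overlap and 0 lower, against 15.0% and 13.8% of all genes. Without replicate 3, the 4 tested comparisons gave 1 upward and 2 downward, 4 and 1, 2 and 6, and 3 and 0, beside the 28.1%, 24.8%, 45.4% and 16.8% of all genes given above. The fit with the replicate block gave 1 upward and 2 downward, 3 and 0, 1 and 4, and 4 and 0, where 20.9%, 12.2%, 32.5% and 7.56% of all genes passed.

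Of 20 Rest corepressors and regulators, 0 passed in let-7a against control and 0 when siSfpq was added to let-7a, by limma, with 1 higher and 1 lower, and 0 higher and 2 lower, at an unadjusted p under 0.05. Of all genes, 4.50% passed upward and 1.83% downward in the first of these comparisons, and 0.812% and 2.02% in the second, so that the list's counts lie near those of all genes. Relative to siSfpq alone, Ctdspl, a phosphatase of the family that acts on Rest and RNA polymerase II, was 0.70 ± 0.17 higher with both (adjusted p = 0.0297 by limma). The corepressor scaffold Sin3a was 0.37 ± 0.10 lower (adjusted p = 0.0477 by limma). These were the only 2 calls of the list there, where 5.57% of all genes passed upward and 3.70% downward. Against control, 0 passed with both by limma (1.12% and 0.204% of all genes), and 1 was lower at an unadjusted p under 0.05. Without replicate 3, the numbers upward and downward were 1 and 2, 2 and 2, 8 and 2, and 1 and 1. The 10 genes in the third of these comparisons stand beside 45.4% of all genes, and in the others 28.1%, 24.8% and 16.8% passed. They were, with the replicate block, 1 and 0, 0 and 0, 3 and 1, and 0 and 0, beside 20.9%, 12.2%, 32.5% and 7.56% of all genes. The medians of the list lay between -0.04 and 0.02 in the 5 comparisons.

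Of 24 genes reported as Rest targets, 14 passed the test upward with let-7a and 0 downward (4.50% of all genes upward), with a median change of 0.81. With siSfpq added to let-7a, 11 passed downward and 0 upward (2.02% downward), with a median of -0.73. Compared with siSfpq, 7 passed with both upward and 0 downward (5.57% upward), and against control Scg2 alone passed, upward (1.12%). In siSfpq against control, 10 were lower and 1 higher without overlap, beside 13.8% and 15.0% of all genes, with a median difference of -0.57. The 4 tested comparisons gave, without replicate 3, 19 upward, 18 downward, 16 upward, and 7 upward with 4 downward, with 28.1%, 24.8%, 45.4% and 16.8% of all genes passing. Without replicate 1-2 or without replicate 4, 1 target passed upward with let-7a, among 3 and 2 of all genes, and 0 of all genes passed in the other comparisons by limma. In the fit with the replicate block, 18 passed upward, 16 downward, 12 upward and 5 upward in the 4 comparisons, where 20.9%, 12.2%, 32.5% and 7.56% of all genes passed. Stmn2, Syn1, Snap25 and Tubb3 of this list are also among the neuron markers above.

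Scg2, a granin of secretory granules, had log2 levels of 10.18, 9.83 and 10.12 in control, 12.74, 12.44 and 12.72 with let-7a, 9.42, 9.27 and 9.29 after siSfpq, and 11.48, 11.48 and 11.39 with both, with no overlap between conditions. It rose by 2.59 ± 0.12 with let-7a (SE, n = 3 per condition; adjusted p = 2.01e-06 by limma) and was 1.40 ± 0.12 above control in let-7a+siSfpq (adjusted p = 0.000428 by limma). Chgb, another granin, rose by 2.69 ± 0.31 with let-7a (adjusted p = 0.000874) and fell by 1.78 ± 0.31 with siSfpq added (adjusted p = 0.0161), both by limma. Scg3 fell by 1.72 ± 0.26 with siSfpq added to let-7a (adjusted p = 0.0104 by limma), and Vgf was 1.78 ± 0.30 higher with both than with siSfpq alone (adjusted p = 0.00742 by limma).

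Gria2, a glutamate receptor subunit, was well above background on 4 of 4 let-7a arrays and on no array of the other conditions. Its level in let-7a was at least 2.97-fold higher than in control (adjusted p = 0.00178 by limma) and at least 4.25-fold higher than with both (adjusted p = 0.00571 by limma). For these bounds, a dim array was set to the lowest signal among probes well above background on it, or to the probe's own value where that was higher. Gria2 passed the filter through let-7a alone, and its p values rest on values not well above background in the other conditions. It is counted among the 14 and 11 calls of the Rest targets above, which were 13 of 23 upward and 10 of 23 downward without it. Syt4, another of the 14 upward calls (2.53, adjusted p = 0.0043 by limma), was also not well above background on all arrays.

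**Figure D4:**
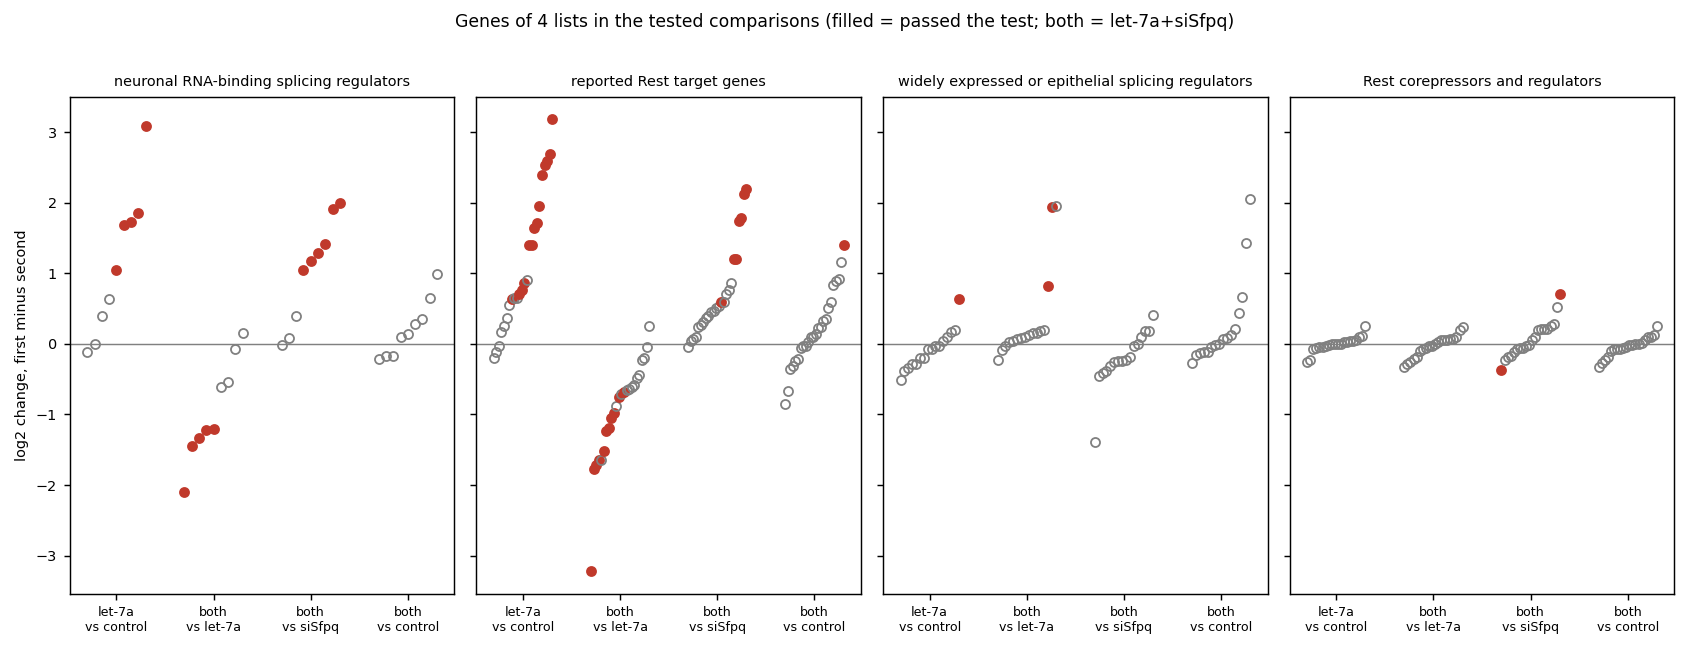
Log2 change (y axis, first condition minus second) of each gene of 4 lists in the 4 tested comparisons (x axis), sorted by size within a comparison, with filled points for genes at an adjusted p under 0.05 by limma. With let-7a against control, 5 of 9 neuronal regulators and 14 of 24 Rest targets are filled and above 0, and none of the 20 Rest corepressors and regulators is filled. The lists were chosen with earlier results of these data known.

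Among the 17544 other genes well above background on all 16 arrays, those with levels most like Srrm4 over the 12 samples were Mfng (Pearson r = 0.992), Nr4a2 (0.992), Pcdhb16 (0.991), Cmip (0.990) and Nkain4 (0.990). Mfng, a modifier of Notch, had mean levels of 12.17 in control, 13.42 with let-7a, 10.57 with siSfpq and 12.14 with both. Nr4a2, a nuclear receptor of dopaminergic neurons, had 7.17, 8.46, 5.78 and 7.20 in the same order. For Ptbp1 they were Grk6 (0.983), Mafg (0.982), Sart3 (0.980), Eif3b (0.979) and Plk1 (0.974). Plk1, a mitotic kinase, had means of 13.62, 13.04, 14.0035 and 13.42. For Rest they were Lrfn1 (0.974), Phb2 (0.969), the probe A_55_P2037538 (0.968), to which no gene symbol was matched, Slc25a39 (0.960) and Baz1b (0.958). These correlations describe samples that share conditions and arrays, and they are the highest of all those computed.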

How the data were processed

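Messenger RNA of P19 cells was measured on 16 Agilent arrays of 1 colour. The members and gene lists were chosen with earlier results of these data known. The authors deposited scanner intensities from Feature Extraction 10.7.3.1 (the processed intensity is background-subtracted and not normalized between arrays) and a table of log2 values, quantile normalized with limma per the study's methods. The deposited log2 values follow the median spot intensity without background subtraction (r of at least 0.999), and their column medians lay between 6.23 and 6.24. The other columns taken from the files are the deposited flags for background, saturation and outliers.

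The log2 processed intensity was quantile normalized with limma 3.58.1 in R 4.3.3; the authors also used quantile normalization, on another intensity. Outlier-flagged spots were set aside and the remaining spots of each probe averaged. The filter kept probes that in some condition were well above background on each of its 4 arrays; 42 probes with a missing value were dropped. Probes were named by RefSeq accession (31531 spots), symbol (3519) or synonym (295), or kept the file's name (7766), and 16194 spots named by a genomic region were left out. Probes of a gene were averaged. limma fitted all 4 conditions together with an intensity trend, and p values were two-sided and Benjamini-Hochberg adjusted over all genes at 0.05. The number of arrays limits the precision. The fit was also run on simulated data with independent noise. These lacked the deviations shared by replicate number that the samples show (next paragraph), so the run cannot speak to those.

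Samples with the same replicate number deviated together (r of 0.293 to 0.713 over 18 pairs, against -0.628 to 0.180 for other numbers), so that the replicate number pairs the samples, by this check and not by the labels. Replicates 1 and 2 were counted as 1 sample after their per-array SD, taken over the conditions together, was found to lie below the SD among spots of 1 probe.

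All members, Sfpq, up to 3 genes per list, direction and comparison with the largest change among those passing the test, and the 5 genes most like Srrm4, Ptbp1 and Rest are named; Elavl2 was chosen after its values were seen. Alternatives were other scalings, background corrections and filters, the slide or replicate as a block, leaving out replicates, the authors' values, the brightest probe, all arrays counted separately, only the groups compared and no trend. Probes tested alone, the block with only probes above background for Rbfox3, and the Rest targets without Gria2 were added after the data were examined.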

Additional observations from a re-analysis of the deposited data

Results flagged for a closer look

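The difference of Ptbp2 between let-7a and control was below 0 in 3 of 3 replicates (mean -0.30), while that between let-7a+siSfpq and siSfpq was above 0 in 3 of 3 replicates (mean 0.16). The 2 differences were 0.46 apart on the log2 scale. This difference was not tested, since it includes the siSfpq samples against control that chose the group.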

How the results depend on the processing

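The calls depended on the samples, the filter, the scaling, the block and the values used, while no tested difference of Srrm4 or Rbfox1 turned sign under the settings tried. The number of members passing was 3 with let-7a against control, 2 with siSfpq added to let-7a, 1 with both against siSfpq and 0 with both against control. With the replicate block it was 6, 4, 3 and 1, and with arrays 1 and 2 counted separately 4 in the second and 3 in the third comparison. The replicate block changed calls of Srrm3, Rbfox3, Ptbp1, Ptbp2 and Rest, and no call of Srrm4, Rbfox1, Rbfox2, Nova1 or Nova2. With no filter on dim probes the number of members passing was 1, 1 and 0 in the first 3 comparisons. The Srrm4 changes of 1.78 and -1.87 then kept their size with adjusted p of 0.0587 and 0.082 (limma). With normexp it was 4 in the second comparison. In the third comparison it was 2 with the 75th percentile scaling, with only probes above background on all arrays and with the brightest probe, 3 with each probe tested alone, and 0 with the authors' processed values or with only the groups compared. The cause of these differences was not tested.

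Leaving out 1 replicate gave 0 to 5 members in the first and the second comparison, 0 to 4 in the third and 0 to 2 in the fourth, with the highest number without replicate 3. The listed genes passing were 20, 18, 15 and 1, and ranged from 1 to 31, 0 to 33, 0 to 41 and 0 to 17, while over all genes the calls ranged from 2 to 5492, 0 to 4862, 0 to 8886 and 0 to 3294. They numbered 8 and 8 in the second and the third comparison with no filter, 28 in the third and 9 in the fourth with the replicate block, 27 and 7 with arrays 1 and 2 counted separately, and in the fourth 2 with the slide block and 3 with only the groups compared. Over these omissions, Srrm4 ranged from 1.72 to 1.84 in the first and from -2.1 to -1.74 in the second comparison. Without a test, it ranged from -3.17 to -2.08 in siSfpq against control and from 2.08 to 2.91 with both against siSfpq.

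Small differences of members that did not pass turned sign. Over the omissions of 1 replicate, Nova2 ranged from -0.13 to 0.081 in the first, from -0.0044 to 0.036 in the second and from -0.13 to 0.12 in the fourth comparison, Rbfox2 from -0.11 to 0.028 in the first, Ptbp2 from -0.032 to 0.063 in the second, Nova1 from -0.054 to 0.050 and Rbfox3 from -0.24 to 0.32 in the third comparison, and Rest from -0.17 to 0.12 in the fourth. With the brightest probe, Rbfox2 was 0.12 in the first and 0.20 in the third, Nova1 0.0053 in the second and 0.40 in the third, and Rbfox3 0.036 in the fourth comparison. Nova1 in the third was 0.078 with the 75th percentile scaling, 0.0020 with normexp and 0.017 with the authors' values. With arrays 1 and 2 counted separately, Rbfox3 was -0.12 in the third and Nova2 -0.035 in the fourth comparison, where Nova2 was -0.0069 with the authors' values. Signal over background limited the dim probes of Srrm3 and Rbfox3.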

Other observations

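The array also carries a probe for Srrm4os, chosen here after its values were seen, which is an RNA named for lying opposite Srrm4, although the array files place the probe on the minus strand of chr5:116912715-116912774 (mm9), the strand of the Srrm4 probe. Its log2 level was 7.21, 5.76 and 7.42 in control, 8.78, 6.87 and 8.72 in let-7a, 5.18, 5.24 and 5.28 in siSfpq, and 6.97, 5.58 and 6.86 in let-7a+siSfpq. The order of the condition means was that of Srrm4, and no tested comparison of this probe passed (adjusted p = 0.224 for let-7a against control by limma).

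Esrp1, an epithelial splicing regulator chosen here after its values were seen, had log2 levels of 4.88, 4.94 and 4.54 in control, 4.68, 5.21 and 4.78 in let-7a, 8.99, 6.83 and 8.86 in siSfpq, and 7.25, 6.01 and 7.27 in let-7a+siSfpq. Its paralogue Esrp2 had 4.88, 4.71 and 5.12 in control, 3.798, 4.65 and 4.75 in let-7a, 7.15, 6.05 and 7.04 in siSfpq, and 6.46, 5.58 and 6.96 in let-7a+siSfpq. For both genes, every sample with siSfpq was above every sample without it, with replicate 3 the lowest of the siSfpq and of the let-7a+siSfpq samples. Esrp1 in let-7a+siSfpq differed from let-7a by 1.95 (adjusted p = 0.0688 by limma).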
